A study of Mus musculus with 9 samples.

Results

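The regions described here are stretches of the mouse genome where DPPA4 was found by chromatin immunoprecipitation and sequencing (ChIP-seq) in both libraries of E14 cells and in both libraries of 3T3 cells, but not reproducibly in P19 cells. Peaks of a line's 2 libraries that overlapped each other by at least 1 bp were merged into reproducible regions of that line, and overlapping reproducible regions of different lines were then joined. A merged region was a member when it held an E14 and a 3T3 reproducible region and no P19 reproducible region. There were 1492 members among 45616 regions, or 3.27% of all, and 13.5% of the regions held by 3T3. The peak lists themselves chose the members, so their presence in E14 and 3T3 and their lack of a reproducible P19 region are no result, and no test is given for either.

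The E14 mouse embryonic stem cells were cultured on gelatin, with no feeders, in 2i medium that also held 2% serum. The 3T3 cells, mouse fibroblasts, expressed Dppa4 ectopically. P19 is a mouse embryonal carcinoma line, and both it and 3T3 were kept in DMEM with 10% serum. Each line gave 2 libraries from an antibody against DPPA4 and 1 input library, and the 3 input libraries were not analysed here. The labels do not say how Dppa4 was placed in the 3T3 cells, whether they were 1 clone, or whether replicate libraries were made from separate cultures. Peak lists held 61693 and 43443 peaks in E14, 15462 and 17540 in 3T3, and 40011 and 51196 in P19. Read numbers are not given in the lists, so the depth of each library is unknown, and where a peak is missing weak and absent binding cannot be told apart.

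DPPA4 is a small nuclear protein with a SAP domain, a fold that binds DNA. It works together with its relative DPPA2 in early embryos, germ cells and pluripotent cell lines, where the pair is known to sit at CpG-rich promoters and to keep developmental genes open to later activation. Fibroblasts do not normally make it. The members are sites that a stem cell line and a fibroblast line with added DPPA4 had in common, while the carcinoma line lacked a reproducible peak. No gene is named for any region, because the peak lists use the mm9 build and no annotation of that build was used here.

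Most of the members were not free of P19 peaks. Of the 1492 members, 905 (60.7%, Wilson 95% interval 58.2 to 63.1) held a peak of P19 replicate 2 alone and 171 (11.5%, 9.94 to 13.2) a peak of P19 replicate 1 alone. Another 46 (3.08%) held a peak of each P19 library, but no 2 that met. No peak of either P19 library lay in 370 members (24.8%, 22.7 to 27.1). The name "without P19" therefore holds for those 370 regions, and for the other 1122 it means without a P19 peak found in both libraries. These intervals, and all others below, are Wilson intervals that cover counting error only and treat regions as independent.

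The background helps to read these counts. Of the 8534 regions held by E14 and 3T3, 17.5% had no reproducible P19 region and 4.34% had no P19 peak at all. The rule used that contrast, and nothing is read from either share. Over all regions held by E14, whether or not 3T3 held them, 31.3% had no reproducible P19 region, and over all held by 3T3 31.6% had none. Of all peaks of P19 replicate 2, 34.8% had no overlapping peak in replicate 1, against 12.3% of the replicate 1 peaks in the opposite direction, so unshared P19 peaks came mostly from replicate 2, the longer list. Over all regions held by E14 or 3T3 and not reproducibly by P19, 48.1% had no P19 peak. By line, that share was 24.8% among the members, 48.6% (47.6 to 49.5) among the 10040 regions of E14 alone and 63.0% (60.9 to 65.1) among the 1992 regions of 3T3 alone. Median widths were 1064.5 bp for the members, 676.5 bp for E14 alone and 839.5 bp for 3T3 alone, and what part width plays in these shares was not tested.

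**Figure D1:**
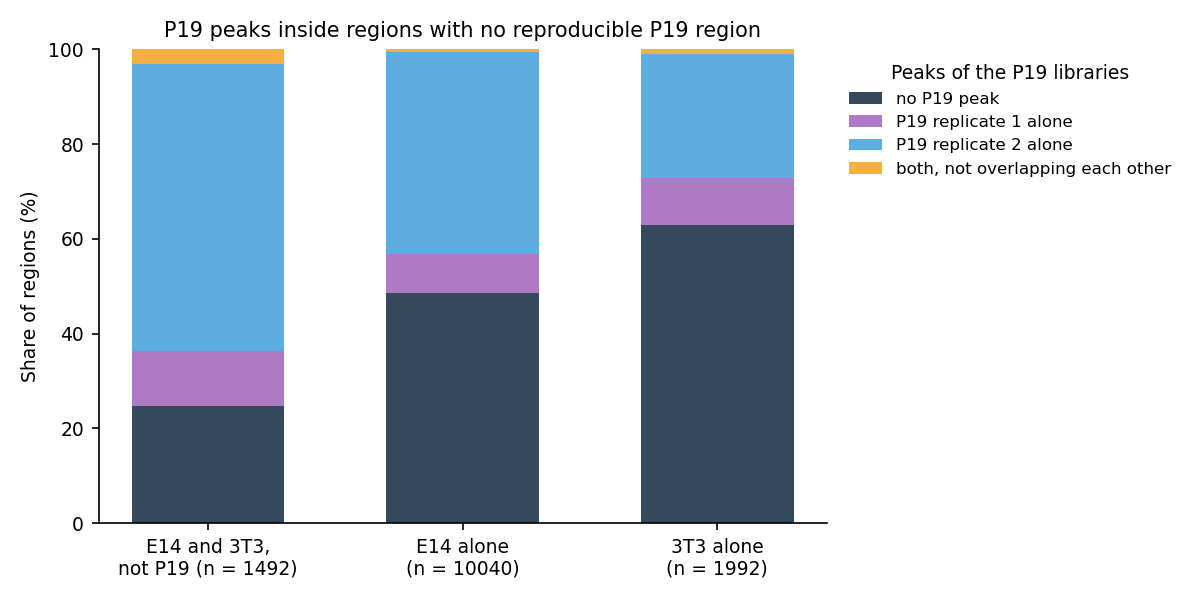
Each bar splits a set of regions with no reproducible P19 region by the P19 peaks found inside it, as a share of the regions in percent: the 1492 members, the 10040 regions of E14 alone and the 1992 regions of 3T3 alone. A peak of P19 replicate 2 alone is the largest part of the members' bar (60.7%), while regions with no P19 peak are the largest part of the other bars (48.6% and 63.0%).

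The P19 peaks inside members ranked low in replicate 1 and spread more widely in replicate 2. The authors' peak score, whose scale the files do not name, starts at 50 in every list and can be compared only within a list. Each score was therefore also given as a percentile within its own list, with 100 for the strongest peak. In the 217 members with a peak of P19 replicate 1, that peak scored between 50 and 213, with a median of 67.3. In the 951 members with a peak of P19 replicate 2, it scored between 50.1 and 417, with a median of 103.7. The median percentile was 21.3 in replicate 1 and 39.4 in replicate 2, against 67.4 and 75.5 in the regions held by all 3 lines. Past the 50th percentile of their list lay 18 of the 217 peaks of replicate 1 and 283 of the 951 peaks of replicate 2. No P19 peak inside a member reached the top decile of its list. The P19 replicate 2 peaks without a partner in replicate 1 had a median percentile of 22.4 over the whole list, so those inside members ranked above the middle of such unshared peaks. The median was also above 22.4 inside the regions of E14 alone (30.9) and, by little, of 3T3 alone (23.2). Where a region held several peaks, the best was taken.

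A form of the rule that leaves libraries out can be read in libraries it did not use. Regions were rebuilt from the replicate 1 libraries alone, and 2045 of them were held by E14 and 3T3 and not by P19. Of these, 61.4% (59.2 to 63.5) had a peak in P19 replicate 2, against 96.6% (96.2 to 97.0) of the 8380 regions that replicate 1 gave in all lines. Over both kinds together the share was 89.7%. Regions built from the replicate 2 libraries were read in P19 replicate 1, the shorter P19 list. Of 1411 such regions without P19, 22.0% (19.96 to 24.3) had a peak in P19 replicate 1, against 87.2% (86.6 to 87.8) of 11783 regions of all lines, with 80.2% over both kinds. In both directions the share in the unused P19 library was thus lower where the first P19 library had no peak. Any agreement between 2 libraries of a line gives this direction, so the difference is a description.

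The unused libraries of the other lines found the rebuilt regions to differing extents. A peak of the unused E14 library lay in 78.1% and 58.8% of the rebuilt regions without P19, against 96.7% and 94.7% of those of all lines. For the unused 3T3 library the shares were 91.9% and 63.1%, against 90.8% and 72.0%. The E14 shares were lower without P19 in both directions, while the 3T3 shares were close in the first direction and lower in the second. With 2 directions and 2 libraries per line, no exact test over libraries was made, since 2 libraries against 2 cannot give a two-sided p under 0.33.

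Within each library's own list, the members were of middling rank in E14 and of somewhat higher rank in 3T3. Their peak scores in E14 ran from 50.1 to 3151 in replicate 1, with a median of 130.9, and from 50.1 to 3100 in replicate 2, with a median of 117.8. In 3T3 they ran from 50.1 to 2093 in replicate 1, with a median of 126.8, and from 50.3 to 2422 in replicate 2, with a median of 267.4. As percentiles, the medians of the members were 52.2 and 46.7 in the E14 libraries, a mean of 49.5 ± 3.87, and 58.9 and 67.0 in the 3T3 libraries, a mean of 62.9 ± 5.71 (SD, n = 2 libraries). A region took the percentile of its best peak. The E14 lists are longer, so percentiles of E14 and 3T3 are not on 1 scale. With every list cut to its best 15462 peaks, the members then found had medians of 81.3 in E14 and 81.2 in 3T3. These are still percentiles of the uncut lists. The cut shut out far more of the low percentiles in E14 than in 3T3, so these medians are not on 1 scale either.

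Members ranked below the regions of all lines in each of the 4 libraries, and the gap was wider in E14. The regions of all lines had median percentiles of 81.0 and 75.6 in the E14 lists and of 70.0 and 75.4 in 3T3. In turn the members ranked above the regions of a single line, which stood at 47.9 and 30.3 for E14 alone in E14 and at 40.9 and 50.3 for 3T3 alone in 3T3. A rank between these sets was not particular to the members. Regions of P19 and 3T3 without E14 stood at 55.1 and 59.5 in 3T3. Those of E14 and P19 without 3T3 stood at 76.5 and 65.7 in E14, above the members. Only 18 and 12 members (1.21% and 0.80%) lay in the top decile of the E14 lists, against 28.5% and 19.4% of the regions of all lines. In the 3T3 lists 68 and 91 members (4.56% and 6.10%) did, against 19.97% and 22.8%. All of these sets were made from the same lists that gave the ranks, so the differences are a description.

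**Figure D2:**
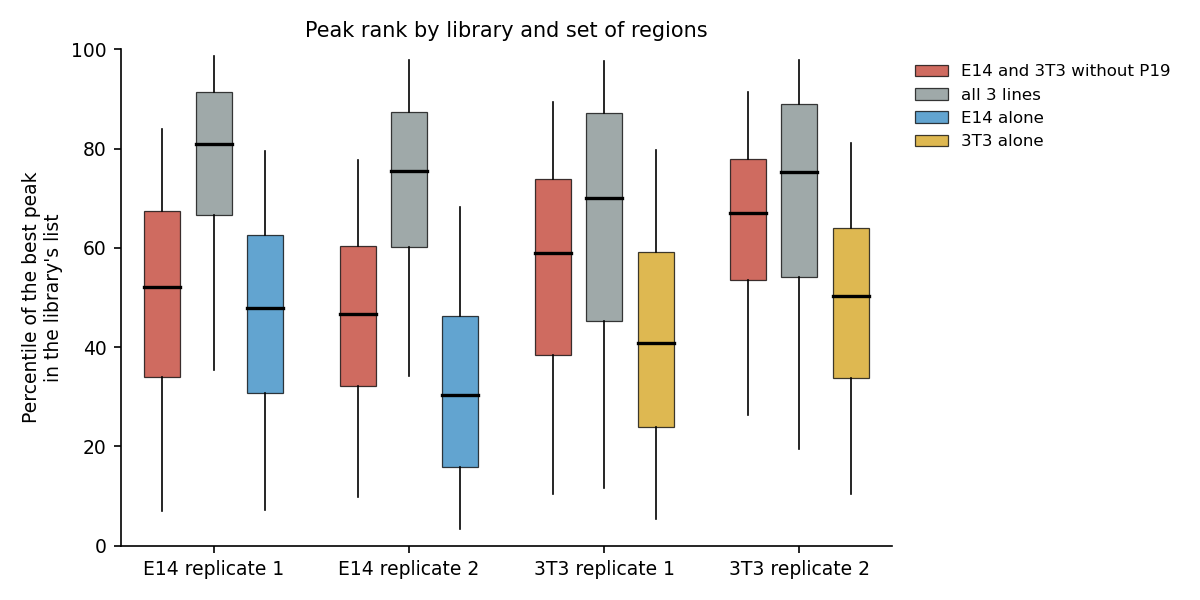
Boxes show the percentile of the best peak of each region in the 2 E14 and the 2 3T3 libraries, with the quartiles and the median, and lines reach from the 5th to the 95th percentile of regions. The members (left box of each library) lie below the regions of all 3 lines and above the regions of 1 line in every library, with medians of 52.2 and 46.7 in the E14 libraries and 58.9 and 67.0 in 3T3.

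Members free of any P19 peak ranked lowest. The 370 members with no P19 peak stood at median percentiles of 43.7 and 38.3 in the E14 lists and 54.3 and 61.2 in the 3T3 lists. The 905 members with a peak of P19 replicate 2 alone had 55.2 and 51.5 in E14 and 59.7 and 68.2 in 3T3. The 171 members with a peak of P19 replicate 1 alone stood at 49.6 and 43.5 in E14, below the 905, and at 64.7 and 69.9 in 3T3, above them. The 370 members thus had the lowest median of these groups in each of the 4 libraries, while the order of the others differed between the lines. The median width was 979 bp in the 370 members and 1085 bp in the 905.

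The E14 and 3T3 peaks of a member lay close together. The rule joins only regions that overlap, which by itself limits the distance between them, so these values are a description. In 1460 members (97.9%) a single E14 region met a single 3T3 region, with median widths of 803 bp in E14 and 991 bp in 3T3. The midpoints of these regions were a median of 83 bp apart (quartiles 37.4 and 144.1 bp), against 84 bp in the regions of all lines. In 743 members (50.9%) the E14 region lay wholly inside the 3T3 region, against 34.2% of the regions of all lines. The reverse held for 146 members (10.0%), against 26.6%. The whole members spanned 440 to 6867 bp with a median of 1064.5 bp, against a median of 1328 bp for all lines, 676.5 bp for E14 alone and 839.5 bp for 3T3 alone. Together they covered 1711 kb.

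The unshared P19 peaks inside members lay close to the E14 peaks too. From the midpoint of the best E14 replicate 1 peak, the best peak of P19 replicate 2 lay a median of 77 bp away in the 951 members that had one, and 83.8% lay within 200 bp. For E14 replicate 2 the median was 82.3 bp, with 84.4% within 200 bp. The 3T3 peaks lay 86.8 and 100.3 bp away in the median. A peak had to overlap the member to be counted, which by itself limits the distance to about the width of the region. In the 217 members with a peak of P19 replicate 1 the median was 89.5 bp, with 74.7% within 200 bp.

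**Figure D3:**
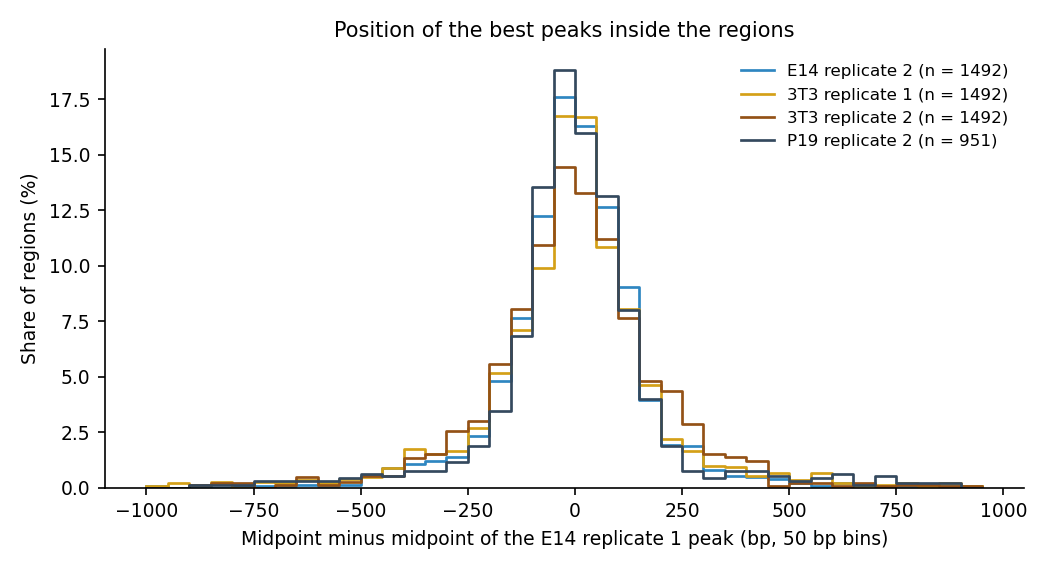
The share of members (percent, in bins of 50 bp) is drawn against the distance in bp of a library's best peak from the midpoint of the best E14 replicate 1 peak, for E14 replicate 2, the 2 3T3 libraries and P19 replicate 2. All 4 curves have their summit at the E14 midpoint, with medians of the absolute distance of 82.3, 86.8, 100.3 and 77 bp.

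The 370 members with no P19 peak lay at widely differing distances from one. The nearest peak of either P19 library was a median of 12608.5 bp away. It lay within 1000 bp for 42 (11.4%), within 10000 bp for 166 (44.9%) and over 50000 bp away for 48 (12.97%). For the regions of E14 alone with no P19 peak the median was 8925 bp, and for those of 3T3 alone 6353 bp. Measured from all 1492 members, the nearest P19 reproducible region was a median of 22313.5 bp away, and 93 members (6.23%) had one within 1000 bp. The greatest distance was 514009 bp.

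The rule turns on the overlap of P19 peaks, and the nearest regions on its 2 sides had P19 peaks of like score, 50.8 to 86.4 just inside it and 53.5 to 95.98 just outside. In the 46 members with peaks of both P19 libraries, the gap between those peaks was 1 to 1048 bp, with a median of 133 bp. The smallest gap, 1 bp, lay in a member on chromosome 10 from 116584786 to 116586058, whose P19 peaks scored 67.2 and 61.6. Gaps of 5 and 11 bp followed. The first of these was at 6489840 to 6491529 of chromosome 18, the other at 103213456 to 103214595 of chromosome 12. Just outside the rule stood a region of all lines on chromosome 4 from 43681913 to 43683089, where the P19 peaks scored 56.2 and 69.7 and shared 10 bp. The next ones shared 18 bp at 193006337 to 193007852 of chromosome 1 and 22 bp at 148274086 to 148275109 of chromosome 4. Such close cases were few, since 19 of the 7042 regions of all lines had P19 peaks that shared under 100 bp, and the median shared length was 664.5 bp.

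Whether an E14 and 3T3 region lacked P19 went with its rank in E14 more steeply than with its rank in 3T3. When the 8534 regions were sorted by the mean E14 percentile, 55.6% (52.2 to 58.9) of the lowest decile had no reproducible P19 region. The share was 14.2% in the fifth decile and 0.70% (0.32 to 1.52) in the highest. Regions with no P19 peak at all made up 21.0% of the lowest decile and 0.12% of the highest. Sorted by the 3T3 percentile, the lowest decile lacked P19 in 14.2% (12.004 to 16.7), the third decile in 27.9% (24.97 to 31.0) and the highest in 3.04% (2.09 to 4.42). The share thus was highest in the third decile of 3T3 rank and lower at both ends. The same lists define the regions and give the ranks, so these shares are a description.

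**Figure D4:**
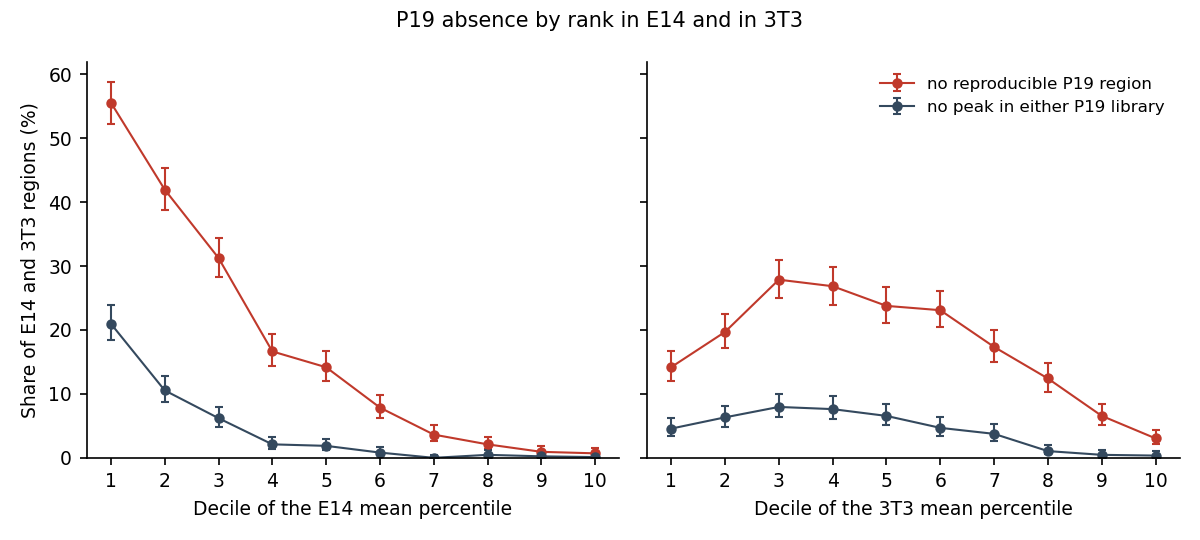
The share of E14 and 3T3 regions (percent) with no reproducible P19 region, and with no peak in either P19 library, is drawn against the decile of the mean percentile in E14 (left) and in 3T3 (right), with Wilson 95% intervals. Against E14 rank the first share drops from 55.6% in the lowest decile to 0.70% in the highest, while against 3T3 rank it is highest in the third decile, at 27.9%.

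Few sites that ranked high in both lines were members. Of all 8534 E14 and 3T3 regions, 17.5% were members. Of 4202 E14 and 3T3 regions at the 50th percentile or above in all 4 lists, 316 (7.52%, 6.76 to 8.36) were. Of 1477 regions at the 75th percentile or above in all 4 lists, 26 (1.76%, 1.20 to 2.57) were, and 1 of these had no P19 peak. Of 273 regions at the 90th percentile or above, 1 was a member, and it had a P19 peak. The same lists give the ranks and the members, so these counts are a description.

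Most of the best-ranked members with no P19 peak stood higher within the 3T3 lists than within the longer E14 lists. First among them was the member at 7608767 to 7610101 of chromosome 18, whose peaks scored 434 and 625 in the E14 libraries and 895 and 1669 in the 3T3 libraries. The next, at 66558798 to 66560259 of chromosome 10, scored 669 and 202 in E14, and 591 and 1176 in 3T3. The third, at 122505939 to 122507081 of chromosome 14, scored 225 and 350 in E14, and 286 and 709 in 3T3. All of these had lower mean percentiles in E14 (86.5, 77.4 and 74.2) than in 3T3 (98.6, 96.2 and 87.6).

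The next in rank, at 85487384 to 85488151 of chromosome 11, was the exception. It scored 494 and 1125.6 in E14, and 191 and 269 in 3T3, with mean percentiles of 90.6 in E14 and 70.2 in 3T3. Below it came members on chromosome 9 (121039886 to 121041717), chromosome 4 (151460312 to 151461612), chromosome 19 (21852514 to 21853819) and chromosome 6 (29718243 to 29719226). These had mean percentiles of 66.5 to 69.1 in E14 and of 85.1 to 90.9 in 3T3.

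Ranks in E14 and 3T3 could lie far apart within a member. The mean percentile was higher in E14 in 421 members and higher in 3T3 in 1071, with a median difference (E14 minus 3T3) of -13.2 points. The E14 lists are longer than the 3T3 lists and reach down to more sites, so a given percentile is not the same depth in both. Across the 1492 members, Spearman's rho was 0.50 between the E14 libraries, 0.68 between the 3T3 libraries and 0.17 to 0.28 between an E14 and a 3T3 library. These describe regions that share the same libraries and were chosen from them.

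The largest excess in E14 was in the member at 35560935 to 35563324 of chromosome 17. It scored 3100 and 2783 in E14, and 55.0 and 73.7 in 3T3, with no P19 peak. The next, at 29894984 to 29895680 of chromosome 3, scored 717 and 395 in E14, and 52.5 and 60.03 in 3T3, again with no P19 peak. The third, at 99633041 to 99634291 of chromosome 11, scored 365 and 502 in E14, 56.6 and 95.8 in 3T3, and 132 in P19 replicate 2. The mean percentiles of these members were 99.8, 86.9 and 83.2 in E14, and 16.4, 9.01 and 23.4 in 3T3.

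In the opposite sense, the member at 139468506 to 139469602 of chromosome 5 scored 51.4 and 55.9 in E14, and 254 and 471 in 3T3, with a peak of 71.3 in P19 replicate 1. Members at 77557152 to 77558519 of chromosome 8 and 20425649 to 20426822 of chromosome 16 had E14 scores of 51.7 to 60.7, 3T3 scores of 269.5 to 530 and no P19 peak. Those E14 peaks lay just above the lowest score of their lists.

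The widest member spanned 6867 bp on chromosome 15 from 6477133 to 6483999. It scored 89.5 and 116 in E14, and 2093 and 1652 in 3T3, at the 99.9th and 98.7th percentile of the 3T3 lists, and had no P19 peak. The next in width covered 4128 bp on chromosome 5 (108151830 to 108155957) and 3760 bp on chromosome 10 (21868125 to 21871884). The chromosome 5 member ranked lower in E14 (mean percentile 69.8) than in 3T3 (95.4), and the chromosome 10 member higher in E14 (97.0) than in 3T3 (38.2). Both held a weak peak of P19 replicate 2, scoring 51.5 and 91.2.

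The strongest single-library P19 peaks inside members all came from replicate 2. They scored 417 on chromosome 15 (41278308 to 41279507), 387 on chromosome 6 (66846007 to 66847328) and 375 on chromosome 12 (4923686 to 4925218). Their percentiles in that list were 78.4, 77.0 and 76.4, so these P19 peaks stood above the 75th percentile of their library, while replicate 1 gave none. The last of these members had mean percentiles of 91.0 in E14 and 91.8 in 3T3.

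Members were found on all autosomes and the X chromosome, and they made up the largest share of E14 and 3T3 regions on chromosome 14. There 77 of 244 regions (31.6%, 26.1 to 37.6) had no reproducible P19 region, against 17.5% over all chromosomes. Regions with no P19 peak at all numbered 25 on chromosome 14 (10.2%, 7.04 to 14.7), against 4.34%. The lowest shares were those of chromosome 11, with 74 of 701 regions (10.6%, 8.49 to 13.1), and chromosome 12, with 40 of 335 (11.9%, 8.89 to 15.9). The X chromosome had 21 of 88 (23.9%, 16.2 to 33.7), an interval that includes the share of all chromosomes. Another 4 members lay on contigs without a fixed place. Chromosome 14 was singled out after its values were seen.

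**Figure D5:**
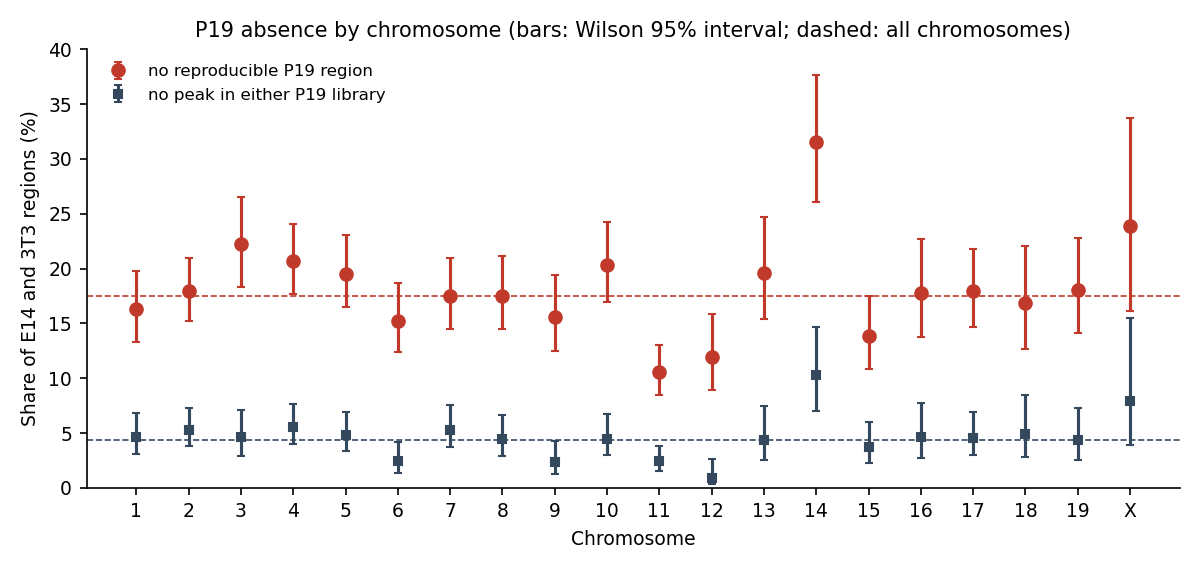
The share of E14 and 3T3 regions (percent) with no reproducible P19 region (circles) and with no peak in either P19 library (squares) is drawn by chromosome with Wilson 95% intervals, and dashed lines give the shares over all chromosomes, 17.5% and 4.34%. Chromosome 14 stands highest on both measures, at 31.6% and 10.2%, and chromosomes 11 and 12 stand low on both.

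The median of the mean E14 percentile over E14 and 3T3 regions was 74.1 on chromosome 14 and 73.2 over all chromosomes, and in 3T3 it was 61.4 on chromosome 14 and 69.5 over all. Among regions in the upper 4 deciles of E14 rank, 11 of 99 on chromosome 14 (11.1%, 6.32 to 18.8) lacked P19, against 52 of 3315 (1.57%, 1.20 to 2.05) on the others. In the middle 3 deciles 28 of 71 did (39.4%, 28.9 to 51.1), against 302 of 2489 (12.1%, 10.9 to 13.5). In the lower 3 deciles 38 of 74 did (51.4%, 40.2 to 62.4), against 1061 of 2486 (42.7%, 40.7 to 44.6), and those intervals overlap. Chromosome 14 was chosen for this share, so these values describe it by E14 rank and test nothing. On chromosome 12 the median of the mean E14 percentile was 80.8. Its shares were 42.4% (30.6 to 55.1) in the lower 3 deciles, 14.9% (9.08 to 23.5) in the middle 3 and 0.55% in the upper 4. On chromosome 11 that median was 72.3, and the shares were 28.7% (23.2 to 35.0), 3.29% and 1.13%.

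Within chromosome 14 the members were uneven. Between 70 and 75 Mb 14 of 22 E14 and 3T3 regions had no reproducible P19 region (63.6%, 43.0 to 80.3). Between 75 and 80 Mb 10 of 16 had none (62.5%, 38.6 to 81.5). Only 3 of the 14 and 3 of the 10 had no peak of either P19 library. The 63.6% and 62.5% were the highest shares among 311 bins of 5 Mb with at least 10 E14 and 3T3 regions (median 17.8%). From the start of the chromosome to 65 Mb the share was 20.1% (14.4 to 27.4), and beyond 80 Mb it was 44.7% (31.4 to 58.8). P19 peaks were somewhat sparse on this chromosome in both libraries. There were 58.8 peaks of P19 replicate 1 per 100 peaks of E14 replicate 1, against 64.9 over all chromosomes, and 103.7 of P19 replicate 2 per 100 of E14 replicate 2, against 117.8. Other chromosomes were also below both overall values, among them 19 (58.2 and 112.6) and 10 (61.3 and 110.2). On these, 18.1% and 20.3% of E14 and 3T3 regions had no reproducible P19 region. Among regions of E14 not held by 3T3, 38.7% (35.9 to 41.6) had no reproducible P19 region on chromosome 14, against 35.4% over all. That share was higher on chromosomes 17 (40.5%) and 19 (44.5%). Among regions of 3T3 not held by E14 it was lower on chromosome 14, at 73.5% (59.7 to 83.8), against 79.9% over all. What part the sparser P19 peaks play in the members' share there was not tested.

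Few members lay close together. The nearest other member was a median of 268694 bp away, and 36 members (2.41%) had one within 10000 bp, in a set of 1492. The next region of any kind was a member for 76 members (5.09%), against 3.55% for the regions of all lines, while members make up 3.27% of all regions. The densest stretches of 500 kb held 7 members each. One ran on chromosome 4 from 151236194 to 151700645, where 3 of the 7 members had no P19 peak and 3 had a peak of P19 replicate 1 alone. That stretch also held 13 regions of all lines, 12 of E14 and P19, and 19 of E14 alone. The other ran on chromosome 10 from 126607702 to 127104546, and each of its 7 members had a P19 peak.

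The number of members fell most when P19 replicate 1 was left out. A line left with 1 library needed only a peak of that library, so each such setting loosened the rule for its line. Without P19 replicate 1, members with a peak of replicate 2 dropped out by construction. That left 541 regions without P19, or 6.34% of the E14 and 3T3 regions in place of 17.5%. Without P19 replicate 2, where members with a replicate 1 peak dropped out likewise, the number was 1276. Leaving out an E14 or a 3T3 library gave between 1673 and 2073. Chromosome 14 kept the highest share of the 20 chromosomes in each of these settings except without E14 replicate 1, where the X chromosome came first. Without P19 replicate 1 its share was 11.9%, against 6.34% over all chromosomes.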

How the data were processed

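The 6 peak lists give the chromosome, start, end, name and score of each peak, called by the authors in each library separately. The deposited score comes from the authors' peak caller and its scale is not named in the files. Per the submitters' processing notes, CASAVA 1.8, bcl2fastq 1.8, BWA 0.7.13-r1126 and SAMtools 1.3 were used with the build mm9. Peak names begin with MACS, per the files. The version, threshold and control of the caller are not given in any source used here. Coordinates are printed 1-based in mm9.

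Groups came from the cell line and replicate number in the titles. Overlaps, merged regions, percentile ranks (ties at the highest rank) and Wilson 95% intervals were computed with Python 3.11.15, NumPy 2.4.6 and SciPy 1.17.1, and figures with Matplotlib 3.10.9. The region code was tested on simulated sites. No test across regions was made, since regions are not replicates. Regions were named by a rule (best ranked without P19 peak, widest, densest stretch, largest difference in rank, strongest single P19 peak, nearest to the threshold). The members, this rule and the alternatives were chosen with earlier results of these data known. No mm9 genome or annotation was at hand, so no sequence or gene is given. The lists give no read numbers, so the depth per library is unknown, and intervals cover counting of regions only.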

Additional observations from a re-analysis of the deposited data

How the results depend on the processing

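The count of 1492 members stayed within 1.5 times under an overlap of 50% of the shorter interval, peaks of 500 bp, the best-scoring 50% of each list, lists of the shortest length, autosomes alone, peaks of either library and a P19 region within 1000 bp counted as held. Leaving out a library, after which any peak of the line's other list counted as held, gave 541 (without P19 replicate 1) to 2073. The share of E14 and 3T3 regions without P19 (17.5%) then ran from 6.34% to 22.0%, the share of members with no P19 peak (24.8%) from 26.5% to 32.5%, the median percentile in E14 (49.5) from 41.03 to 49.6 and in 3T3 (62.9) from 56.3 to 62.03, and the X chromosome share (23.9%) from 11.4% to 34.3%. With the best-scoring 50% of each list these values were 31.7%, 32.3%, 71.4, 80.2 and 43.8% (of 16 X chromosome regions). With lists of 15462 peaks they were 29.5%, 51.0%, 81.3, 81.2 and 5.56% (of 36). Fewer and stronger peaks entered in both cases, save that 3T3 replicate 1, the shortest list, kept all of its 15462 peaks in the second. The percentiles are those of the uncut lists, so a cut by itself shut out low values wherever it shortened a list. A P19 region within 1000 bp counted as held gave 16.4% without P19, and peaks of either library gave 10.7%, with medians of 30.4 in E14 and 44.5 in 3T3 and 14.6% on the X chromosome. With a replicate block, regions built from libraries of the same number (the mean of both numbers), there were 1728 members, 15.2% without P19, medians of 38.3 and 50.9, and 15.9% on the X chromosome. Nothing in the labels ties libraries of equal number to each other. The share of members with no P19 peak is 100% by construction where P19 has 1 list, and is not given. The share with a peak in the unused P19 library (61.4%) was 22.0% when replicate 2 built the regions and 54.1% with the best-scoring 50%. The chromosome 14 share, an alternative set chosen after seeing the data, was the highest of 20 chromosomes in 12 of 13 alternatives. The lists hold no reads, so weak and absent P19 binding cannot be told apart.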
